A study of Caenorhabditis elegans with 2 samples.

Results

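The V0 sector genes of the vacuolar H+-ATPase (V-ATPase) of Caenorhabditis elegans were examined for regions bound by NHR-237, a nuclear hormone receptor. The 10 genes, vha-1 to vha-7, vha-16, vha-17 and unc-32, were taken by name from 19973 protein-coding genes of the nuclear chromosomes in the Ensembl annotation of WBcel235. They were not chosen by any measured value of these lists, although earlier results of the same data were known. Chromatin came from whole L1 larvae of both sexes of strain OP228 (unc-119(ed3) III; wgIs228), which carries an inserted transgene for the factor fused to eGFP, in 1 group of 2 biological replicates. All values therefore come from tagged protein in a strain that carries the unc-119(ed3) allele. Whole animals were used, so a region cannot be assigned to a tissue, and no sample without the tag was analysed here.

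The V-ATPase is a rotary proton pump that acidifies lysosomes, endosomes and synaptic vesicles, and in nematodes it also works at the apical membrane of the intestine and in the excretory system. Its cytosolic V1 sector hydrolyses ATP, and its membrane-embedded V0 sector carries protons through a ring of proteolipid subunits that turns against subunit a. In the V0 sector, vha-1, vha-2 and vha-3 encode the proteolipid subunit c and vha-4 the related subunit c''. The genes unc-32, vha-5, vha-6 and vha-7 encode forms of subunit a, vha-16 encodes subunit d, and vha-17 encodes the small subunit e.

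The measurements were 4 ce11 lists of regions. The list kept by the authors after an irreproducible discovery rate (IDR) step, which compares replicates, held 970 regions, the list from both replicates pooled 7699, the replicate 1 list 21745 and the replicate 2 list 25720. The pooled list is labelled as peaks and background for input to the IDR step, so it is not a list of peaks alone. Its weak regions include one near vha-5 with a −log10 q of 0.0363 (rank 6513). Replicate 1 has one at vha-2 with 0.0463 (rank 15991). A summit in the pooled or replicate lists alone is therefore not called binding. Each region has a signal value from the authors' peak caller on a scale that is not stated. Values are therefore ranked within a list, with rank 1 the strongest. The 970 IDR regions were the 970 strongest of the pooled list, and both lists give them the same signal and rank. A place in the IDR list thus does not show that a region was strong in each replicate. Of the 970, 966 had a region in both replicate lists, and 23 of these (2.38%) were outside the strongest 970 of both. Read depth is unknown. A promoter is counted from 1000 bp upstream to 200 bp downstream of any annotated transcript start, and a gene is called bound where an IDR summit lies in it. No test was made on the members, because they were chosen with results known, and counts stand beside the share over all protein-coding genes.

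Of the 10 V0 genes, 3 were bound, namely vha-1, vha-16 and vha-17, or 30% against 4.66% of all protein-coding genes. They encode 3 different subunits, c, d and e. Of the 4 genes for subunit a none was bound, and of the 4 proteolipid genes (c and c'') only vha-1 was. With 4.66% of all genes bound, counts among so few genes say nothing about a subunit as a class. In these counts vha-2 is judged by its own annotated start, although it is known to share an operon with vha-1. A region of the pooled list lay in the promoter of 4 members (40%, against 18.4% of all genes), the fourth being unc-32, and the same 4 had a summit there in both replicate lists (40%, against 21.7%). For vha-2 a weak region of replicate 1 alone lay in the promoter. The other 5 members, vha-3 to vha-7, had no summit there in any list, which was also true of 47.3% of all genes. The median of the strongest promoter signal was 77.4 over the 3 bound members, 117 over the 4 bound genes of the V1 sector, and 76.9 over all 931 bound genes. The median of the bound members thus lay near that of all bound genes. The members themselves were spread over the list, at IDR ranks 149 (vha-1), 440 (vha-16) and 843 (vha-17) of 970. In the pooled list the median was 67.0 over 4 members, 70.6 over 7 V1 and accessory genes, and 34.1 over the 3679 genes with a region. These medians depend on the share of bound genes, because IDR regions are the strongest of the pooled list. Bound genes were 3 of the 4 members, 4 of the 7 V1 and accessory genes, and 931 of the 3679 genes.

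Windows of 201 bp around the summits of vha-1, vha-17 and unc-32 are given because they hold the strongest region of the sector (vha-1), the bound region on which the replicates differed most (vha-17), and the near and far regions of unc-32. They were read from the RefSeq sequence of WBcel235, 5′ to 3′ on the strand of the gene, with the pooled summit at the middle base. Capitals mark matches to the 6 short motifs described after the lists of other lysosomal genes, on either strand. In these windows they are GGTCTC at vha-1, the reverse complement of TATAAA at vha-17, that of GAGAGA in the near region of unc-32, and GGTCTC with GAGAGA in its far region.
vha-1, chrIII:9780711-9780911, plus strand: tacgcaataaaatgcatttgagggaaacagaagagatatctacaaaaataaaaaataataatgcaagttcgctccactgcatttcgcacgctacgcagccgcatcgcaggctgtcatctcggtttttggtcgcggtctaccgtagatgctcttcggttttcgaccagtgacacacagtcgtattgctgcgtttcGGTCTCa
vha-17, chrIV:9321300-9321500, plus strand: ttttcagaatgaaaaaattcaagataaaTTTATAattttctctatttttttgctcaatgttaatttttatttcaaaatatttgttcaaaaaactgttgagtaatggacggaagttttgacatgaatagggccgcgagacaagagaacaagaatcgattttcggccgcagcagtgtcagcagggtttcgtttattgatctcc
unc-32, near region, chrIII:8905322-8905522, plus strand: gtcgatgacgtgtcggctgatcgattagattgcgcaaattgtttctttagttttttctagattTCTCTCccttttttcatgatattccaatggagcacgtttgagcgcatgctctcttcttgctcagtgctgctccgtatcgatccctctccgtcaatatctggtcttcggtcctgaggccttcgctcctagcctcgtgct
unc-32, far region, chrIII:8904196-8904396, plus strand: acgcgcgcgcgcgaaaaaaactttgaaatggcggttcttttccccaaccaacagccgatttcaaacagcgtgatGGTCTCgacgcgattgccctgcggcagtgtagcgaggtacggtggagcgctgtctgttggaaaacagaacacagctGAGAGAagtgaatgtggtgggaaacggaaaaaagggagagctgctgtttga

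**Figure D1:**
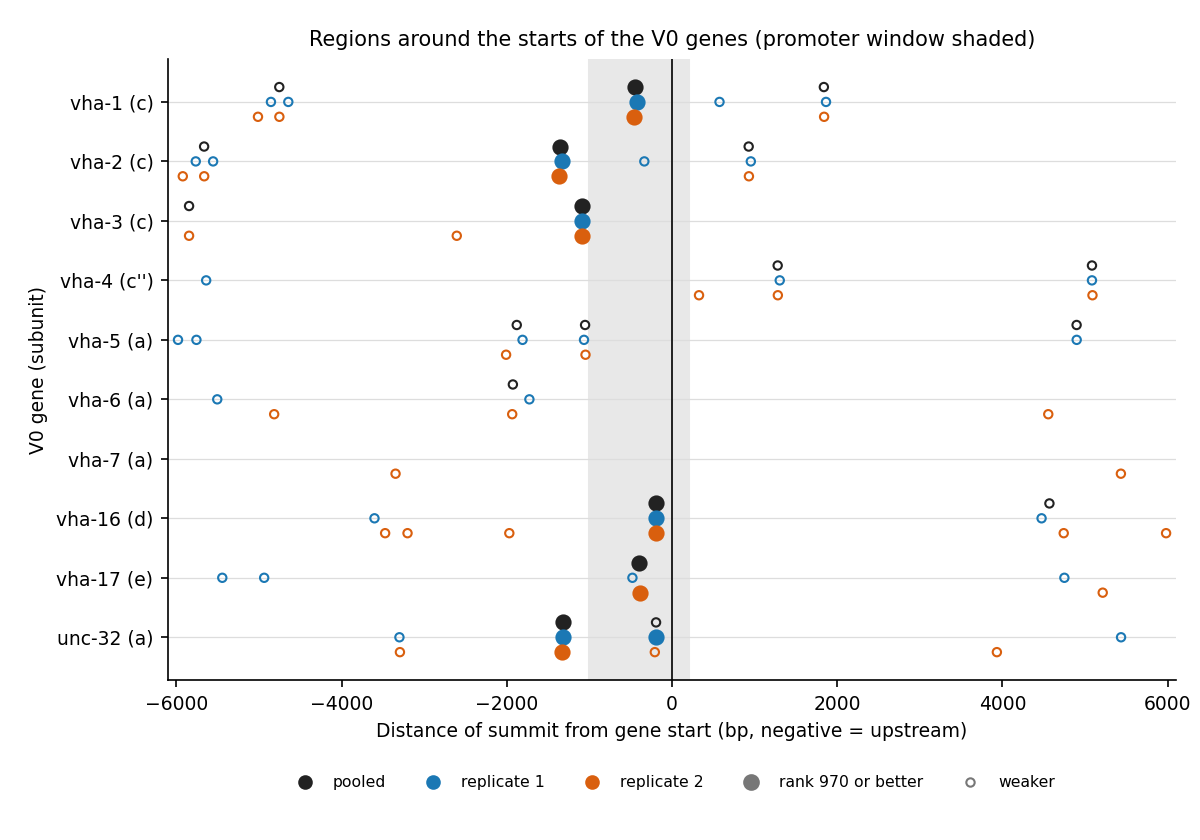
Summits within 6000 bp of the start of each V0 gene, with distance in bp along the x axis and genes down the y axis. Black, blue and orange points are the pooled, replicate 1 and replicate 2 lists, large filled points have rank 970 or better in their list, and grey marks the promoter. Strong points sit in the promoter at vha-1, vha-16 and vha-17, and at unc-32 in replicate 1, and just upstream of it at vha-2, vha-3 and unc-32.

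Among the proteolipid genes, vha-1 (WBGene00006910, III 9781254 to 9781763, plus strand) had the strongest region. It ran from 9780629 to 9780992 in intergenic sequence, with its summit 443 bp upstream of the start, and had a signal of 124 (rank 149 of 970 in the IDR list). Replicate 1 gave 60.9 (rank 221) and replicate 2 gave 56.7 (rank 138). Both replicates thus placed it in the upper part of their lists, and their summits lay 41 bp apart. The deposited −log10 q of the pooled region was 2.93, the top value of that list, which 427 regions share. The same summit lies 457 bp upstream of sqv-3, which is transcribed the other way and encodes a galactosyltransferase of glycosaminoglycan synthesis. Which of these genes the region belongs to was not tested.

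The second proteolipid gene, vha-2 (III 9782164 to 9783224), follows vha-1 on the same strand after a gap of 400 bp, and the pair is known to be transcribed together as an operon. The vha-1 summit lies 1353 bp upstream of the annotated vha-2 start. In the vha-2 promoter itself replicate 1 had a region of signal 10.7 (rank 15991, −log10 q 0.0463) with its summit 335 bp upstream, and neither replicate 2 nor the pooled list had one. A pooled region of signal 28.1 (rank 4239) had its summit 928 bp downstream of the vha-2 start, where the end of vha-2 overlaps the start of R10E11.6.

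The third proteolipid gene, vha-3 (IV 2315460 to 2315945, minus strand), is known to share an operon with vha-11, which encodes the V1 subunit C and lies 892 bp downstream of it. No list had a summit in the promoter of either. An IDR region from 2316851 to 2317214 had its summit 1088 bp upstream of vha-3, just outside the window, with a signal of 75.8 (rank 462). Replicate 1 gave it 44.0 (rank 459) and replicate 2 gave it 31.4 (rank 624). Both replicates ranked it well inside their strongest 970 regions. Its summit lies in an exon and annotated 5′ UTR of Y38F2AL.12, a gene on the other strand. The nearest annotated transcript start of that gene is 30 bp away. The gene itself begins nearer to vha-3, after a gap of 627 bp. The region itself reached into the vha-3 promoter, so that vha-3 counts as bound where any overlap of 1 bp is taken.

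The gene for subunit c'', vha-4 (II 7878082 to 7879316, minus strand), had no summit in the promoter in any list. The nearest IDR summit was 8181 bp upstream. A replicate 2 region with its summit 327 bp downstream of the start, outside the window, had a signal of 11.8 (rank 12788). A pooled region of signal 30.7 (rank 3258) lay 1279 bp downstream, next to the start of T01H3.2.

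Of the genes for subunit a, unc-32 (WBGene00006768, III 8905615 to 8911756, plus strand), the form known for its part in neurons, was the only one with a summit in the promoter in any list. Its promoter held a pooled region from 8905240 to 8905603, with the summit 193 bp upstream of the start. The signal was 41.6 (rank 1533, −log10 q 1.15), under the lowest IDR signal of 52.6. Replicate 1 gave it 31.8 (rank 835) and replicate 2 gave it 9.06 (rank 24230). It was thus among the strongest 970 regions of replicate 1 and near the bottom of the replicate 2 list, with summits 15 bp apart. There were 196 pooled regions outside the IDR list that ranked so high in replicate 1 and also had a region in replicate 2. Their median replicate 2 rank was 3964, and 6 of them (3.06%), unc-32 included, ranked 24230 or lower. The printed window also overlaps the noncoding RNA gene ZK637.19.

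Farther upstream of unc-32 lay an IDR region from 8904114 to 8904477, with its summit 1319 bp from the unc-32 start and 165 bp upstream of lin-9, which is transcribed the other way and encodes a subunit of the DREAM complex. Its signal was 97.5 (rank 275). Replicate 1 gave it 58.1 (rank 247) and replicate 2 gave it 37.4 (rank 409). Both replicates ranked this far region above the near one, and it is counted for lin-9 alone under the promoter rule.

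The other genes for subunit a had weak or distant regions. For vha-5 (IV 8303968 to 8307371), known from hypodermis and the excretory canal, a pooled region with its summit 1052 bp upstream had a signal of 24.6 (rank 6513), and one 1879 bp upstream had 48.1 (rank 1153). For vha-6 (II 11435210 to 11438452), whose product acidifies the lumen of the intestine, the nearest pooled region was 1926 bp upstream (36.7, rank 2023) and lay 49 bp upstream of the neighbouring gene VW02B12L.2. For vha-7 (IV 12640462 to 12650652), the gene with the longest span of the sector, the nearest pooled region was 6449 bp upstream (47.0, rank 1220). Both of its annotated starts lacked a summit in every list. The nearest IDR summits were 71614 bp from vha-5, 92630 bp from vha-6 and 81265 bp from vha-7.

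The gene for subunit d, vha-16 (WBGene00016258, I 5079910 to 5082279, minus strand), had an IDR region from 5082290 to 5082653. The summit was 193 bp upstream of the outermost of its 3 annotated starts, and no other protein-coding promoter holds it. The signal was 77.4 (rank 440). Replicate 1 gave 43.6 (rank 468) and replicate 2 gave 30.6 (rank 675). Both ranks were inside the strongest 970 of their lists, and the replicate summits lay 2 bp apart, against a median of 23 bp over the 966 IDR peaks matched in both replicate lists.

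The gene for subunit e, vha-17 (WBGene00009882, IV 9321801 to 9322525, plus strand), had an IDR region from 9321218 to 9321581. The summit was 401 bp upstream of the start and 311 bp upstream of F49C12.12, which is transcribed the other way. The signal was 56.7 (rank 843). Replicate 1 gave 15.2 (rank 5432) and replicate 2 gave 47.1 (rank 244). The region was thus strong in replicate 2 alone. The −log10 q was 0.253 in replicate 1 and 3.08 in replicate 2, the top value of that list, which 604 regions share. Only 2 of the 966 IDR peaks (0.207%), vha-17 included, ranked 5432 or lower in replicate 1. That count is for replicate 1 alone. Other IDR peaks ranked lower than this in replicate 2, for example at 24444, 16920 and 15813, and their number was not counted. The replicate summits lay 86 bp apart at vha-17, a gap reached by 11.1% of the 966 IDR peaks.

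**Figure D2:**
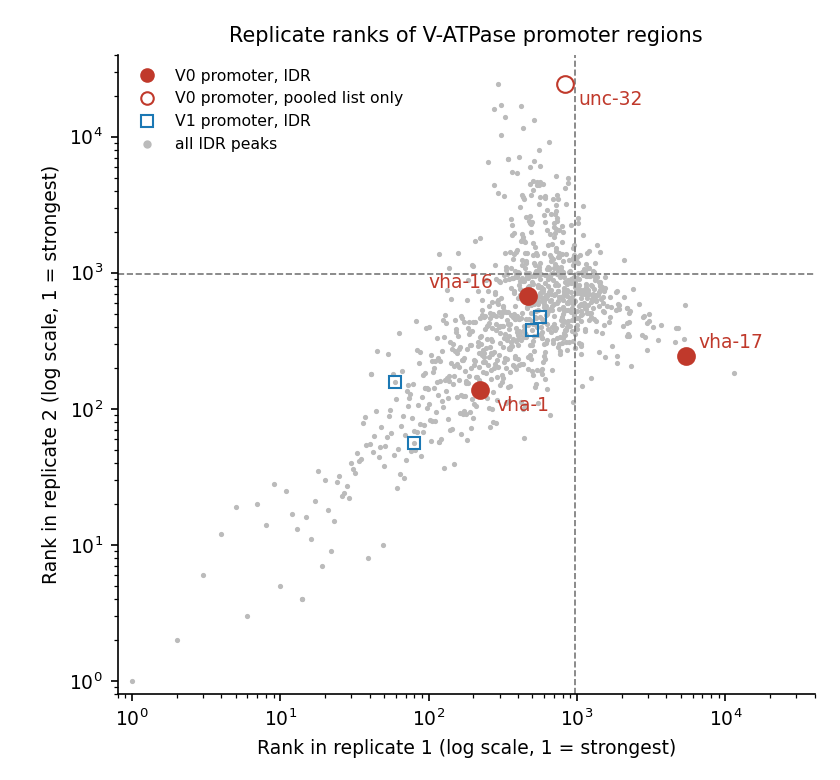
Rank in replicate 1 (x axis) against rank in replicate 2 (y axis), both on log scales with 1 the strongest; grey dots are IDR peaks matched in both replicate lists, red circles V0 promoter regions and blue squares bound V1 promoter regions. Dashed lines mark rank 970. The vha-1 and vha-16 circles lie within both lines, vha-17 lies at rank 5432 in replicate 1 and 244 in replicate 2, and unc-32 (open circle, pooled list only) at 835 and 24230.

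Taking the strongest 970 regions of each replicate alone, 3 members had a summit in the promoter either way, but they were not the same 3. In replicate 1 they were vha-1, vha-16 and unc-32 (30%, against 4.47% of all genes). In replicate 2 they were vha-1, vha-16 and vha-17 (30%, against 4.63%). The members bound in both were vha-1 and vha-16. Of the 966 IDR peaks, 619 (64.1%) were in the strongest 970 regions of both replicates. In those of replicate 2 alone were 150 (15.5%), as vha-17 was, and in those of replicate 1 alone 174 (18%).

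The count of members depended on the length of the window. With 2000 bp upstream in place of 1000 bp, 6 of 10 members had an IDR summit (60%, against 6.06% of all genes). The added members were vha-2, through the region of vha-1, vha-3, through that at Y38F2AL.12, and unc-32, through that of lin-9. In the pooled list the same change gave 8 of 10 (80.0%, against 25.1%), with vha-5 and vha-6 added, and 8 of 10 also had a summit in both replicate lists (80.0%, against 33.5%). Only vha-4 and vha-7 were left out of each count of 8. The annotated 5′ UTR pieces of the members were at most 31 bp long, though distances from annotated starts to start codons were not measured. Many nematode transcripts are trans-spliced, so an annotated start need not be where transcription begins, and distances are to the annotation alone.

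**Figure D3:**
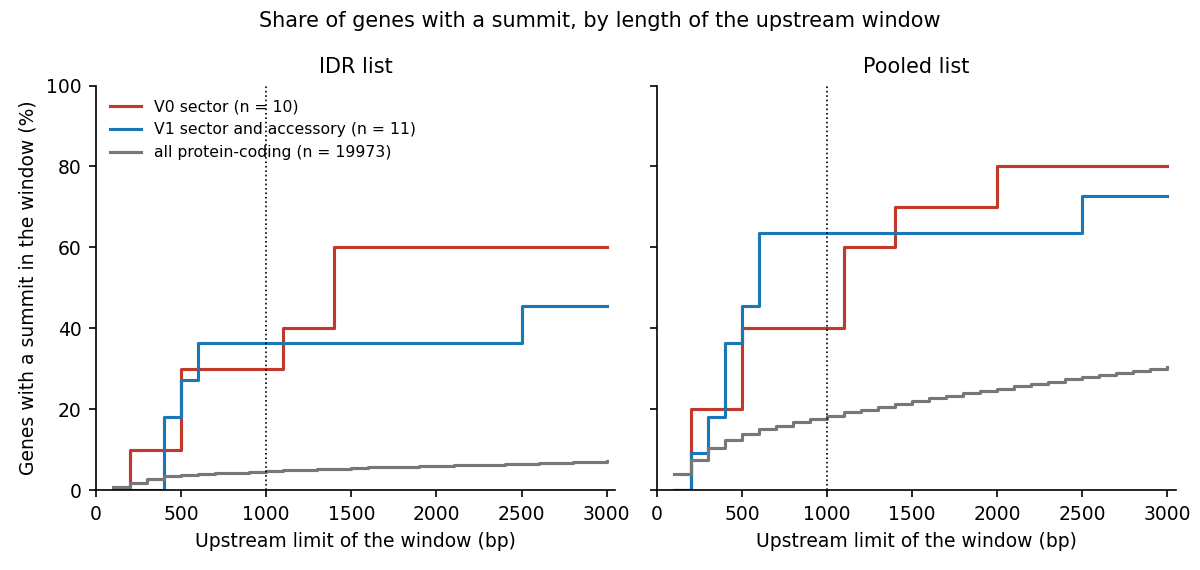
Percentage of genes with a summit, for windows reaching from 100 to 3000 bp upstream (x axis) and always 200 bp downstream, in the IDR list (left) and the pooled list (right). Red is the V0 sector (10 genes), blue the V1 sector with accessory genes (11) and grey all 19973 protein-coding genes, and the dotted line marks 1000 bp. In the IDR list the V0 line steps to 60% between 1000 and 1400 bp, while the V1 line is at 36.4% from 1000 to 2000 bp.

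The V1 sector and accessory genes, that is the 11 other genes named vha, are the nearest comparison. By the same rule 3 of 10 V0 genes (30%) and 4 of 11 V1 and accessory genes (36.4%) were bound, a difference of 1 gene that was not tested. The bound V1 genes were vha-8, for subunit E of the stator (signal 163, rank 67), vha-12, for the nucleotide-binding subunit B (153, rank 79), vha-13, for the catalytic subunit A (81.2, rank 401), and vha-15, for subunit H (70.6, rank 536). The strongest V0 region, at vha-1 with rank 149, was weaker than those of vha-8 and vha-12. Replicate ranks of the bound V1 genes ran from 59 to 563 in replicate 1 and from 56 to 473 in replicate 2, so all 4 were inside the strongest 970 of both, as were 2 of the 3 bound V0 genes. Pooled regions below the IDR signal lay at vha-9, for subunit F (39.4, rank 1730), vha-10, for subunit G (29.8, rank 3544), and vha-19 (35.5, rank 2198). In vha-14, for subunit D, weak regions were seen in the replicate lists alone. The genes vha-11, vha-18 and vha-20 had no summit in the promoter in any list.

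**Figure D4:**
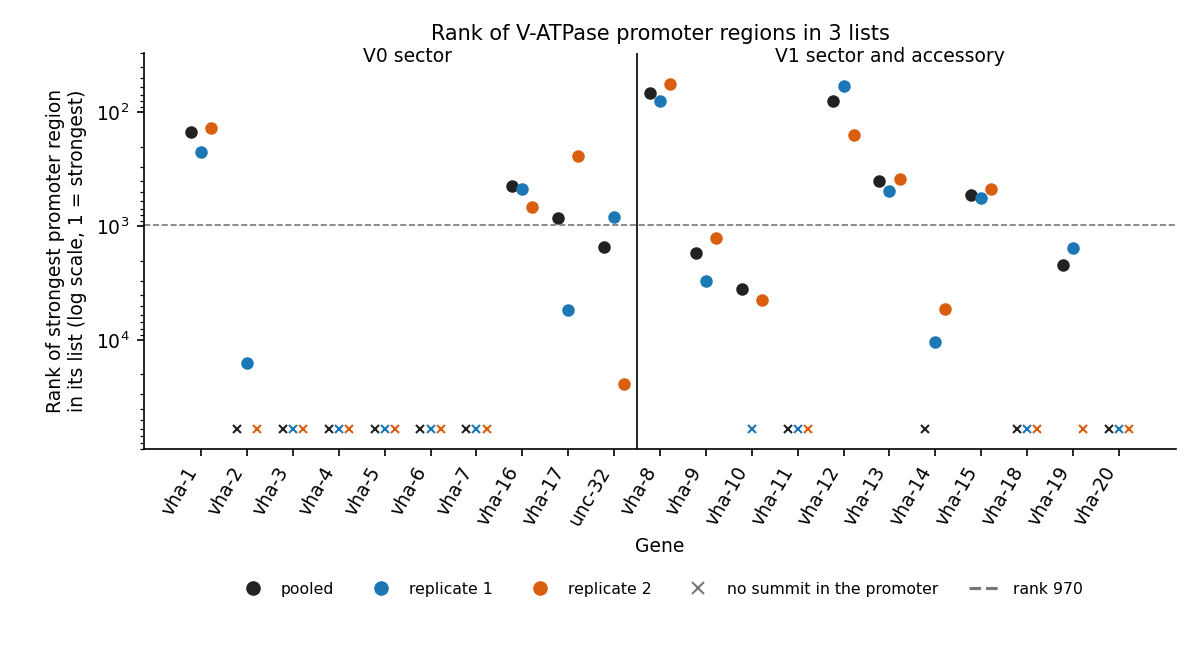
Rank of the strongest promoter region of each V-ATPase gene (log scale, strongest at the top) in the pooled list (black), replicate 1 (blue) and replicate 2 (orange), with V0 genes left and V1 and accessory genes right. Crosses stand for no summit in the promoter, and the dashed line marks rank 970. All 3 points lie above the line at vha-1, vha-16, vha-8, vha-12, vha-13 and vha-15, while vha-17 and unc-32 are split by replicate.

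Other genes linked to the lysosome were counted in the same way. Of 21 lysosomal genes found in the annotation, 2 were bound (9.52%, against 4.66% of all genes). These were ppk-3, which encodes the lipid kinase PIKfyve (62.6, rank 693), and ctns-1, which encodes the cystine transporter cystinosin (65.8, rank 627). The other lysosomal genes were not bound, the cathepsin genes cpl-1, cpr-6, asp-1, asp-3 and asp-4 among them. With 4.66% of all genes bound, so few unbound genes say nothing about cathepsins as a class. A list of 12 genes for lysosomal nutrient signalling was set by name, and not all of their products need act at the lysosome itself. Of these 12 genes, 2 were bound (16.7%, against 4.66% of all genes). These were rheb-1, which encodes the GTPase that activates TOR (85.4, rank 374), and hlh-30, the homolog of TFEB, which is known to activate lysosomal genes (59.1, rank 787). In the pooled list, 7 of the 12 signalling genes (58.3%) and 4 of the 21 lysosomal genes (19%) had a promoter summit, against 18.4% of all genes. The counts in both replicate lists were the same, against 21.7% of all genes.

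The sequences near the summits were searched on both strands for 4 short motifs, namely the nuclear receptor half-site AGGTCA, the E-box CACGTG, the GATA motif TGATAA and the TATA box TATAAA. None of them lay within 50 bp of the summit at vha-1, vha-16 or vha-17. Over all 970 IDR summits the shares with a match in that window were 2.47% for AGGTCA, 3.61% for CACGTG, 2.06% for TGATAA and 4.12% for TATAAA. Within 100 bp, only TATAAA at vha-17 was found (12.8% of all IDR summits). In the promoter window of the outermost start, AGGTCA was found at unc-32 alone (26.7% of all promoters) and CACGTG at vha-3 and vha-4 (18.4%), while TGATAA was found at 8 of 10 members (72.0%) and TATAAA at 8 of 10 (80.0%).

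A pair of further motifs was picked after these sequences had been seen, and describes them only. GGTCTC or its reverse complement lay within 50 bp of the summit at 1 of the 3 bound members, vha-16, and in the far regions of unc-32 and vha-3, and at 11.5% of all IDR summits. Within 100 bp it was also found at vha-1, where the match is near the edge of the window, and at 16.5% of all IDR summits. Neither window held it at vha-17 or in the near region of unc-32. GAGAGA lay within 50 bp of the summit at vha-16 and in the near region of unc-32, and at 31.5% of all IDR summits. Within 100 bp the far region of unc-32 had it too, as did 44.7% of all IDR summits. At vha-16 matches of the pair overlap. The share of G and C within 100 bp of the summit was 45.8% at vha-1, 44.8% at vha-16 and 32.8% at vha-17, against a median of 43.3% over IDR summits and 33.8% over the pooled summits outside the IDR list. The near region of unc-32 had 47.8% and its far region 52.7%.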

How the data were processed

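NHR-237 ChIP-seq peak lists of 2 biological replicates in 1 group were used, grouped by the replicate number in the labels. Per the readme files deposited with the lists, a control alignment was used with the reads of 1 replicate for each replicate list and with those of both for the pooled list, and the IDR list derives from these 3. The sources used here name no aligner, peak caller or IDR threshold. The deposited signal value is a score of the peak caller, and the deposited q-value is its −log10 by the narrowPeak format. Depth is unknown. The ce10 lists were not used.

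Genes and transcript starts came from Ensembl release 115 (WBcel235, the coordinates of ce11), bases from RefSeq. Summits, counted from 1, are the region start plus the deposited offset. Replicate regions were matched by an overlap of at least 1 bp. Promoter assignment was checked on made-up coordinates with known answers. Python 3.11.15 and pandas 2.3.3 were used. The members, lists and tests were chosen with earlier results of these data known, and no p-value was computed. Named genes are all members, all genes named vha, genes that hold or share a member's region, neighbours, and bound genes of the lysosome and nutrient signalling lists. The symbol ostm-1 matched no gene. vha-11 and the cathepsin genes were named as unbound. Alternatives were other windows, overlap rules, starts and summit windows, the nearest gene only, a stricter signal limit in the IDR list (its median), and each replicate left out.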

Additional observations from a re-analysis of the deposited data

How the results depend on the processing

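The count of 3 bound V0 genes was 2 to 4 under 7 of 8 alternatives and 6 with 2000 bp upstream. The members bound under all 8 were vha-1 and vha-16. Counting the nearest gene only, or IDR regions above the median signal only, left vha-17 out. Leaving out each replicate gave 3 and 3 (without replicate 2, vha-17 was lost and unc-32 gained), and 4 and 4 for V1 genes (3 to 4 over all alternatives). With 2000 bp upstream, 8 members had a summit in the pooled list and 8 in both replicate lists, in place of 4, the median pooled signal was 76.6 in place of 67.0, and unc-32 had 97.5 in place of 41.6. The lysosomal count of 2 was 1 with 500 bp upstream and 0 above the median signal, and leaving out a replicate gave 1 to 2 (without replicate 1, ppk-3 was lost). The signalling count of 2 was 1 with the gene start only and 1 above the median signal, hlh-30 being lost in both, and leaving out a replicate gave 2 to 3. Without replicate 1, hlh-30 was lost and daf-15 gained, and without replicate 2, flcn-1 was gained. These alternatives for both lists were chosen after seeing the data. TATAAA was found at 1 bound V0 summit with 100 bp either side, in place of 0, and GGTCTC at 2 in place of 1. The cause of each change was not tested beyond the change of window or list itself. No paired analysis was possible because there is 1 group. Depth is unknown, so a promoter without a region is not shown to be free of the factor. A summit in the pooled or replicate lists alone is likewise not shown to be binding.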
